A study of Mus musculus with 41 samples.

Results

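The 38 genes described here encode proteins of the late cell cycle: the cyclins and kinase that drive entry into mitosis, the spindle checkpoint, the ubiquitin enzymes that end mitosis, and the proteins that build the kinetochore, spindle and cleavage furrow. They were chosen by name from a list of mitotic genes, with the condition that a gene reach 1 CPM (counts-per-million, a gene's reads scaled by the total reads of its library) in at least 3 libraries. All 38 listed genes were found and met it, among 16967 of 55487 genes that did, and each was at or above 1 CPM in 41 of 41 libraries.

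The study followed E14 mouse embryonic stem cells as they left naive culture. Naive cells were kept in 2iL, a serum-free medium with inhibitors of GSK3 and MEK plus the cytokine LIF. For the transition they spent 1 day in N2B27 basal medium without these factors and then 1, 3 or 5 days in AloXR (low activin A, the tankyrase inhibitor XAV and a retinoic acid receptor antagonist), which is used to derive formative stem cells. The Esrrb wild type line (WT) was compared with KO2 and KO3, both given only as genetically depleted for Esrrb, a nuclear receptor of the naive network. Each line had 3 libraries in 2iL and 4 at each AloXR time, except KO3 with 2 at day 3 and 2 at day 5. The labels do not give the part of Esrrb that was targeted, whether a line is 1 clone, or whether libraries of a group came from separate cultures, so p-values measure only the spread between these libraries.

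Mitotic genes are transcribed late in the cycle and their products are removed as cells divide, so their bulk level follows the share of cells in G2 and mitosis as well as the rate of transcription. Most are held silent in early cell cycle phases by the DREAM complex, and are activated later by MuvB with B-Myb and then FoxM1. These complexes act at a promoter motif called the cell cycle genes homology region (CHR), together with CCAAT boxes that bind NF-Y. Naive mouse embryonic stem cells divide fast with a short G1 phase. In these bulk libraries, fewer cells in mitosis and less RNA per mitotic cell cannot be told apart.

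The promoters of these genes share letters that the choice by name did not use. RefSeq windows on GRCm38.p6, from 250 bases before to 50 after the start, matched 32 of the 38, without an entry for Ccna2, Aurkb, Incenp, Kif20a, Tpx2 and Dlgap5. A CHR (TTTGAA or TTCGAA, either strand) stood in 26 of the 32, against 21.7% of 27025 genes. A CCAAT box (either strand) stood in 24, against 41.1% of genes, and 22 windows held both, against 8.61% of genes. Neither motif contains the other. Cdc20, Top2a, Kif11 and Bub1 are shown because they carry these motifs and stand for different behaviours in the values given here, and Nusap1 and Nuf2 because their windows held neither although their levels differed with genotype in opposite directions. Each is the stretch just before the gene, 5′ to 3′ on the gene's own strand, with CHR and CCAAT letters on either strand in capitals. The CHR of Bub1 lies after its start and so outside the stretch shown.
Cdc20, chr4:118437353-118437493, minus strand: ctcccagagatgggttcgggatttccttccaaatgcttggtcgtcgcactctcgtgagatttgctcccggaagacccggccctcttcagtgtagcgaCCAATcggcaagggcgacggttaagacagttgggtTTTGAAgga
Top2a, chr11:99024190-99024339, minus strand: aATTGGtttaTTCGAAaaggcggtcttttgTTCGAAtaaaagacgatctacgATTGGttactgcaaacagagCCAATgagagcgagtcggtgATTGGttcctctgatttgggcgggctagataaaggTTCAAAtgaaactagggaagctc
Kif11, chr19:37376232-37376381, plus strand: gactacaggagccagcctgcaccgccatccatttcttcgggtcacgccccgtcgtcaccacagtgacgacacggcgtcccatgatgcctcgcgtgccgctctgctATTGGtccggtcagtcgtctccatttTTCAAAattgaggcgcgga
Bub1, chr2:127831866-127832009, minus strand: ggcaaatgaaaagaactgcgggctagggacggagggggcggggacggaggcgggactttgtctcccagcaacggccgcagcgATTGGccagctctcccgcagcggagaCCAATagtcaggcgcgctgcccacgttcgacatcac
Nusap1, chr2:119618148-119618297, plus strand: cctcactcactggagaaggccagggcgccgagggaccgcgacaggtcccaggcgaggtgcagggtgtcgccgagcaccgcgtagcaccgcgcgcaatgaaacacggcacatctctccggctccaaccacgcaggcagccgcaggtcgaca
Nuf2, chr1:169531465-169531614, minus strand: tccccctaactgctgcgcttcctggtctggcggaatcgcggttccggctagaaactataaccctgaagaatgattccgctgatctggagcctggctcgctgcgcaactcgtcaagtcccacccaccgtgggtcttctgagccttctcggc
A match is a description of letters, not a bound site, and the absence of a match says only that the letters are not in this window.

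The libraries held 3424064 to 5736053 reads. Summed CPM of 11 embryonic stem cell markers, Esrrb among them, ran from 2005 to 3063 in 2iL and from 681 to 914 at day 5. In 2iL the sum was 2924 to 3063 in WT, 2258 to 2564 in KO2 and 2005 to 2767 in KO3. At day 1 it was 1509 to 1615, 1100 to 1219 and 1194 to 1267, so WT lay above both depleted lines at these times. KO2 overlapped WT at days 3 and 5, and KO3 at day 5. Esrrb in 2iL was 434, 381 and 309 CPM in WT, 52.0, 55.2 and 56.7 in KO2, and 103, 136 and 166 in KO3, which put every depleted library below WT. At day 1 the WT libraries held 12.2 to 17.8 CPM of Esrrb, KO2 1.64 to 5.52 and KO3 26.1 to 41.4, so the line labelled KO3 was above WT there. At day 3 it was 1.19 to 1.83 CPM in WT, 1.16 to 3.20 in KO2, and 6.17 and 4.87 in KO3, again above WT. With the lines averaged, Esrrb was called higher (0.74, adjusted p = 0.0265 in limma). KO3 alone differed from WT by 1.33 (adjusted p = 0.00256 in limma), against its label, and KO2 alone by 0.15 (adjusted p = 0.763). These are low values, as 3 reads made 0.52 to 0.88 CPM over the libraries. At day 5 no library passed 1.69 CPM. A 3′ tag outside the deleted part would not check the depletion. In 2iL, the library numbered 3 in accession order stood apart in every line: it held the highest of the line's 3 values for 27 of the 38 mitotic genes in WT, 35 in KO2 and 38 in KO3, against 33.2%, 34.9% and 37.2% of all genes tested. Its members' median stood above the mean of the other 2 libraries by 0.37, 0.42 and 0.66 on the log2 scale. Dnmt3b, a DNA methyltransferase gene of the formative state, was 107 to 121 CPM in these 3 libraries and 39.7 to 59.9 CPM in the other 6. Counts, medians and calls that rest on 2iL are therefore also given without them.

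The 38 genes together made up less of the libraries in the depleted lines at day 1 and day 3. At day 1 their summed level was 7225 to 7690 CPM in the 4 WT libraries, 5841 to 6102 in KO2 and 6469 to 6685 in KO3. At day 3 the sum was 6605 to 7101 CPM in WT, 5548 to 6137 in KO2 and 5957 to 5961 in the 2 KO3 libraries. At neither time did a depleted library reach the lowest WT library. At day 5 the WT sum was 6768 to 7324 CPM, KO3 was lower at 5758 to 5978, and KO2 at 5508 to 6891 overlapped WT. In 2iL the lines overlapped, with 5473 to 7127 CPM in WT, 4027 to 6174 in KO2 and 4062 to 6708 in KO3, the top value of each being the library numbered 3. Without those libraries WT held 6157 and 5473 CPM, and the 4 depleted libraries lay below at 4027 to 4961.

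**Figure D1:**
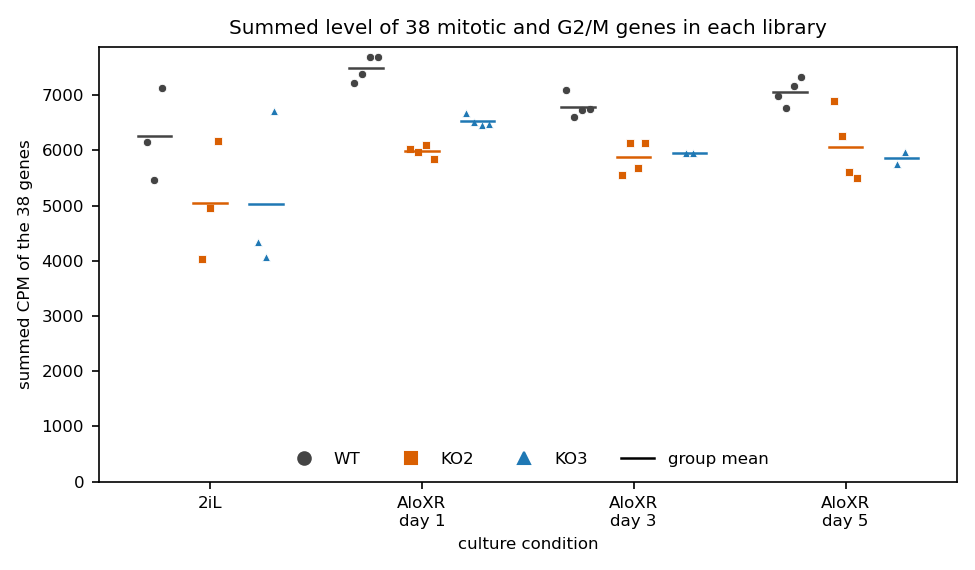
Summed level of the 38 mitotic genes in CPM (y axis, from 0) for each of the 41 libraries by line and time (x axis). Points are libraries and horizontal bars are means. At days 1 and 3 the lowest WT library (7225 and 6605 CPM) lies above every KO2 and KO3 library, and in 2iL the spread within each line is wider than the distance between lines.

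To ask which genes differed with genotype, the mean of KO2 and KO3, each with equal weight, was compared with WT at the same time by limma on log2(CPM + 1). Calls needed 3 things: a p below 0.05 after Benjamini-Hochberg adjustment over all 16967 genes, a difference of at least 1.5-fold, and the same direction in both lines. In 2iL 6 of the 38 were called lower (Bub1b, Ube2c, Cdca8, Cenpa, Nusap1 and Dlgap5), against 7.60% of all genes tested, and 0 higher, against 8.11%. At day 1, 2 were called lower (Nusap1 and Dlgap5), against 5.50%, and 0 higher, against 6.31%. At day 3, 5 were called lower (Bub1, Ube2c, Cdca8, Nusap1 and Dlgap5), against 6.49%, and 0 higher, against 10.8%. At day 5, 10 were called lower (Ccnb2, Bub1, Bub1b, Ube2c, Cdca8, Cenpa, Nusap1, Hmmr, Dlgap5 and Anln), against 11.7%, and 1 higher (Nuf2), against 8.89%. Where limma called 0 higher, 0 members were higher at an unadjusted p under 0.05, and edgeR and DESeq2 on the recovered reads also called 0.

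The differences were mostly small and pointed down. The median difference over the 38 was −0.29 in 2iL, −0.32 at day 1, −0.22 at day 3 and −0.33 at day 5 on the log2 scale, beside 0.04, 0.02, 0.03 and 0.00 over all genes tested. At these times 7, 6, 7 and 11 of the 38 lay above the WT mean. An adjusted p under 0.05 at any size and below WT was reached by 14 members in 2iL (10.5% of all genes tested), 21 at day 1 (10.5%), 13 at day 3 (11.4%) and 18 at day 5 (17.8%). Every depleted library lay below every WT library for 5 members in 2iL (6.28% of all genes tested), 18 at day 1 (6.29%), 12 at day 3 (8.23%) and 16 at day 5 (11.3%). In the other direction, every depleted library lay above every WT library for 3 members at day 5 (Incenp, Nuf2 and Kif20b) and 0 at the other times. The share of all genes was not taken for that direction. Day 1, with the fewest calls past 1.5-fold, had the most members with every depleted library below WT. Over the 4 times 22 of the 38 lay below the WT mean at every time, beside 15.4% of all genes tested. At least 1 call in either direction was made for 11 of the 38, beside 41% of all genes, and Nusap1 and Dlgap5 were called lower at all 4 times, as were 0.731% of all genes.

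**Figure D2:**
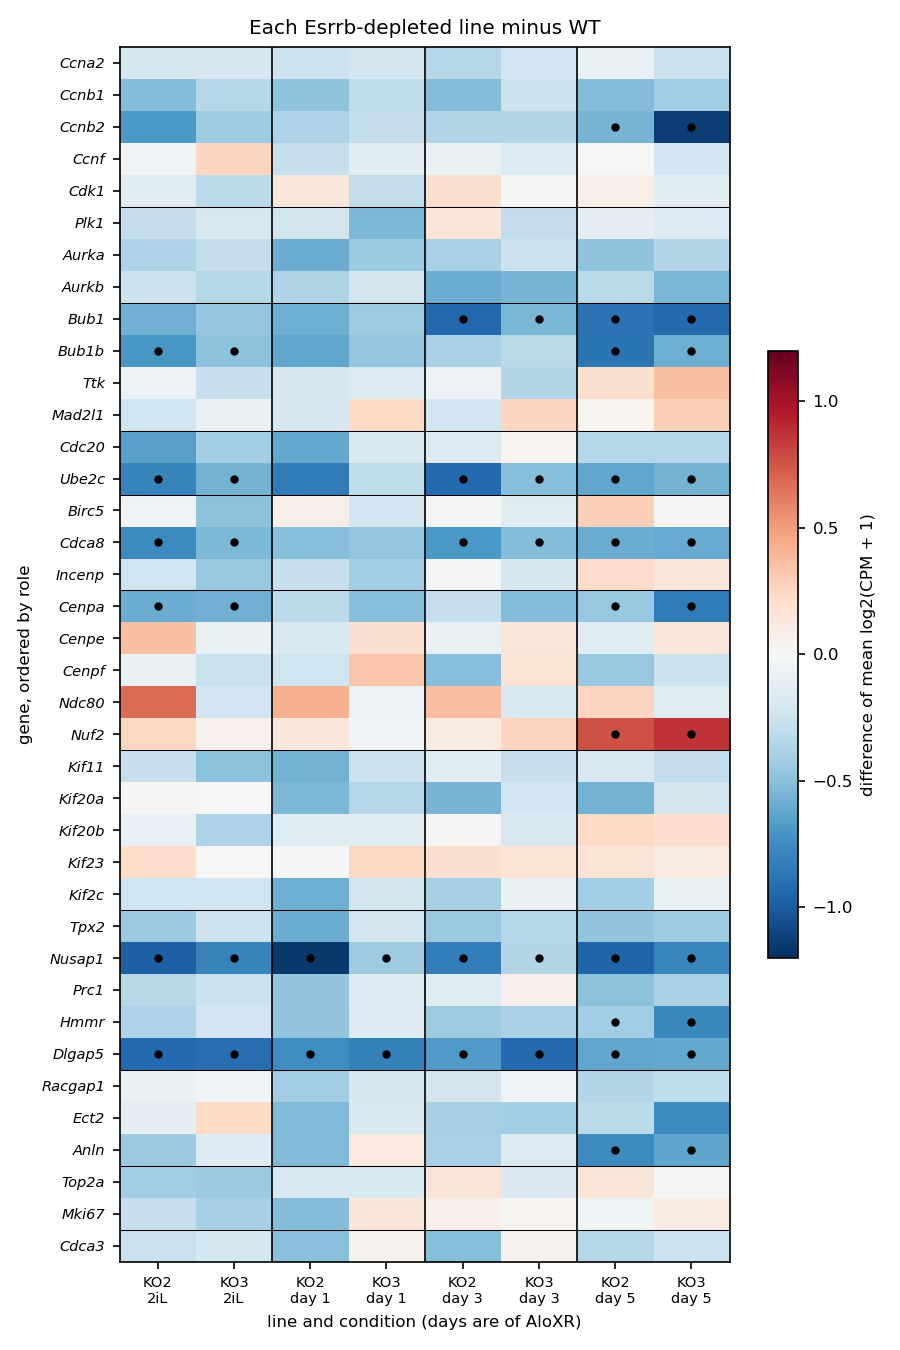
Heat map of the difference from WT in log2(CPM + 1) for KO2 and KO3 separately at the 4 times (columns) for the 38 genes grouped by role (lines of the map). Dots mark genes called with the lines averaged. Nusap1 and Dlgap5 carry a dot at all 4 times, while the kinetochore genes Cenpe, Ndc80 and Nuf2 were not below WT at any time with the lines averaged.

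Among the cyclins and their kinase, the median difference of the 5 genes was −0.22, −0.23, −0.28 and −0.17 in 2iL and at days 1, 3 and 5. Ccnb1, cyclin B1, the partner of Cdk1 at mitotic entry, was 285, 298, 308 and 298 CPM in WT at day 1, 211, 216, 206 and 219 in KO2, and 249, 234, 229 and 250 in KO3. Every depleted library was below WT. The difference was −0.39 (adjusted p = 0.00831 in limma), short of the 1.5-fold limit. Ccnb2, cyclin B2, was called at day 5, where WT held 119.8, 119, 117 and 121 CPM, KO2 110.2, 91.3, 69.5 and 60.9, and KO3 52.9 and 55.3. All depleted libraries were lower, and KO2 spread widely (−0.84 ± 0.11 SE, adjusted p = 1.88e-07 in limma). Cdk1, the mitotic kinase itself, differed by −0.22, −0.08, 0.09 and −0.03, none called. Ccna2, cyclin A2, and Ccnf, cyclin F, were not called at any time.

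The 3 mitotic kinases had medians of −0.30, −0.38, −0.32 and −0.42 and none was called. Aurka, Aurora A, which matures centrosomes and the spindle, was 122, 136, 151 and 145 CPM in WT at day 1, 89.1, 83.0, 97.6 and 96 in KO2 and 98.2, 102, 104 and 102 in KO3. The groups did not overlap (−0.52, adjusted p = 7.54e-04 in limma). Aurkb, Aurora B, the kinase of the chromosomal passenger complex, was nearest the limit at day 3 with −0.58 (adjusted p = 0.0367). Plk1, which acts from centrosomes to cytokinesis, differed by −0.24, −0.38, −0.08 and −0.14.

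Of the spindle checkpoint genes, Bub1 and Bub1b were called and Ttk and Mad2l1 were not. Bub1, a kinase that recruits checkpoint proteins to kinetochores, was 126, 134, 124 and 121 CPM in WT at day 3, 79.9, 47.9, 79.0 and 59.3 in KO2 and 85.8 and 86.6 in KO3. At day 5 it was 161, 127, 164 and 179 CPM in WT, 82.7, 90.8, 79.5 and 84.9 in KO2 and 82.4 and 80.4 in KO3. At both times all depleted libraries were lower, by −0.74 ± 0.12 (SE) and −0.91 ± 0.12 (adjusted p = 5.6e-06 and 1.1e-07 in limma). In 2iL and at day 1 the difference of Bub1 was −0.52 and −0.51. Bub1b, the BubR1 checkpoint protein, was 118, 114, 115 and 119 CPM in WT at day 5, 99.96, 66.0, 48.8 and 48.5 in KO2 and 73.2 and 81.8 in KO3, without overlap (−0.73 ± 0.14, adjusted p = 1.01e-04). In 2iL it differed by −0.60 ± 0.15 (adjusted p = 0.00323). Ttk, the Mps1 kinase, and Mad2l1, which inhibits Cdc20, differed by 0.28 and 0.16 at day 5.

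The ubiquitin enzymes that end mitosis had medians of −0.60, −0.49, −0.39 and −0.47. Ube2c, the E2 enzyme that works with the anaphase-promoting complex, was 404, 338 and 538 CPM in WT in 2iL, 189, 226 and 324 in KO2, and 284, 210.3 and 380.2 in KO3, where KO3 overlapped WT (−0.68 ± 0.15 SE, adjusted p = 5.64e-04 in limma). At day 3 it was 474, 461, 459 and 460.2 CPM in WT, 296, 250.1, 254 and 184 in KO2, and 319 and 330.4 in KO3. No depleted library reached WT there (−0.72 ± 0.14, adjusted p = 1.02e-04), nor at day 5 (−0.60 ± 0.14, adjusted p = 9.01e-04). At day 1 it differed by −0.58, just short of the limit. Cdc20, the activator of the complex, differed by −0.53, −0.40, −0.07 and −0.35 and was not called.

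In the chromosomal passenger complex 1 of the 3 genes listed under it was called. Cdca8, borealin, which holds the complex at centromeres, was 316, 294, 273 and 285 CPM in WT at day 3, 162, 189.7, 191 and 179 in KO2 and 206 and 199.7 in KO3. At day 5 it was 312, 345, 333 and 349 CPM in WT, 242, 237, 214 and 192 in KO2 and 211 and 227 in KO3. Every depleted library was below every WT library at both times. The difference was −0.61 ± 0.10 (SE) at day 3 and −0.60 ± 0.10 at day 5 (adjusted p = 1.42e-05 and 1.39e-05 in limma), −0.65 ± 0.11 in 2iL (adjusted p = 1.34e-05) and −0.48, not called, at day 1. Birc5, survivin, differed by −0.27, −0.08, −0.08 and 0.15, and Incenp, the scaffold, by −0.35, −0.34, −0.11 and 0.17, none called.

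The 5 centromere and kinetochore genes had medians of 0.14, 0.04, 0.03 and 0.01. Cenpa, the histone H3 variant of centromeres, was 239, 157 and 179 CPM in WT in 2iL against 101 to 164 in the 6 depleted libraries, with overlap (−0.59 ± 0.13 SE, adjusted p = 8.67e-04 in limma). At day 5 it was 181, 204, 199 and 190.3 CPM in WT, 205, 147, 125 and 104 in KO2, and 105 and 108 in KO3 (−0.65 ± 0.13, adjusted p = 6.73e-05), and 1 KO2 library was at the WT level. Nuf2, of the NDC80 complex that binds microtubules, was 15.5, 12.3, 13 and 17.9 CPM in WT at day 5, 28.5, 22.9, 23.4 and 26.6 in KO2 and 26.3 and 28.3 in KO3. It was the 1 member called higher, with all depleted libraries above WT (0.81 ± 0.18, adjusted p = 4.37e-04). Cenpe, a kinetochore kinesin, differed by 0.14, 0.00, 0.03 and 0.01, and Cenpf was not called.

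None of the 5 mitotic kinesins was called, with medians of −0.23, −0.40, −0.20 and −0.24. Kif11, the motor that separates spindle poles, differed by −0.38, −0.41, −0.20 and −0.24. Kif23, a central spindle motor of cytokinesis, lay above WT at all 4 times by 0.11 to 0.18.

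The proteins that bind spindle microtubules included both genes called at all 4 times, with medians over the 5 of −0.34, −0.41, −0.41 and −0.59. Nusap1, which bundles microtubules around chromosomes (chromosome 2, 119618298 to 119651244), was 250.3, 211 and 204 CPM in WT in 2iL, 115, 103 and 118 in KO2 and 123, 110.0 and 149.9 in KO3. At day 1 it was 210.2, 226, 230.5 and 247 CPM in WT, 94.4, 98, 112 and 103 in KO2 and 174, 162, 178 and 164 in KO3. At day 5 it was 225, 244, 263 and 259.7 CPM in WT, 179, 136, 103 and 103 in KO2 and 129.9 and 157 in KO3. At each of these times KO2 and KO3 were wholly below WT, and at day 1 KO3 lay between the other lines. The differences were −0.89 ± 0.12 (SE) in 2iL, −0.79 ± 0.11 at day 1, −0.59 ± 0.11 at day 3 and −0.87 ± 0.11 at day 5 (adjusted p = 1.83e-07, 1.31e-07, 8.79e-05 and 6.86e-08 in limma).

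Dlgap5, the HURP protein that stabilises kinetochore fibres (chromosome 14, 47387779 to 47418407), was a gene of low level. It was 32.5, 24.7 and 30.7 CPM in WT in 2iL, 13.7, 13 and 18 in KO2 and 14.9, 11 and 20.6 in KO3. At day 3 it was 36.5, 34.5, 32.5 and 37.5 CPM in WT, 19.6, 21.4, 21.3 and 24.2 in KO2 and 19.5 and 16.5 in KO3. No depleted library reached WT at either time. KO3 minus WT and KO2 minus WT were both negative at all 4 times. The differences were −0.92 ± 0.15 (SE), −0.78 ± 0.13, −0.81 ± 0.14 and −0.62 ± 0.14 in 2iL and at days 1, 3 and 5 (adjusted p = 9.36e-06, 1.87e-05, 2.83e-05 and 7.81e-04 in limma). Hmmr, a hyaluronan receptor that also acts at spindle poles, was called at day 5, where it was 209.8, 211, 248 and 271 CPM in WT and 135 to 198 in the depleted libraries (−0.59 ± 0.09, adjusted p = 1.69e-06). Tpx2, which activates Aurora A on the spindle, was 174 to 182 CPM in WT at day 1, 111 to 127 in KO2 and 143 to 160.4 in KO3. It differed by −0.34, −0.41, −0.39 and −0.45, each with an adjusted p under the limit (0.0266, 0.00223, 0.00493 and 0.00109) and none past 1.5-fold.

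Of the 3 cytokinesis genes, Anln, the actin-binding anillin of the cleavage furrow, was called at day 5. It was 92.3, 83.4, 97.3 and 90.8 CPM in WT, 52.6, 52.3, 61.7 and 47.1 in KO2 and 58.9 and 57.3 in KO3, without overlap (−0.70 ± 0.13 SE, adjusted p = 4.83e-05 in limma). Ect2, the RhoA exchange factor, differed by 0.07, −0.36, −0.40 and −0.54. Top2a, the topoisomerase that untangles chromosomes, differed by −0.43 in 2iL (adjusted p = 0.00844) and by −0.18, −0.01 and 0.08 later, and the proliferation marker Mki67 by −0.33, −0.19, 0.05 and 0.02.

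**Figure D3:**
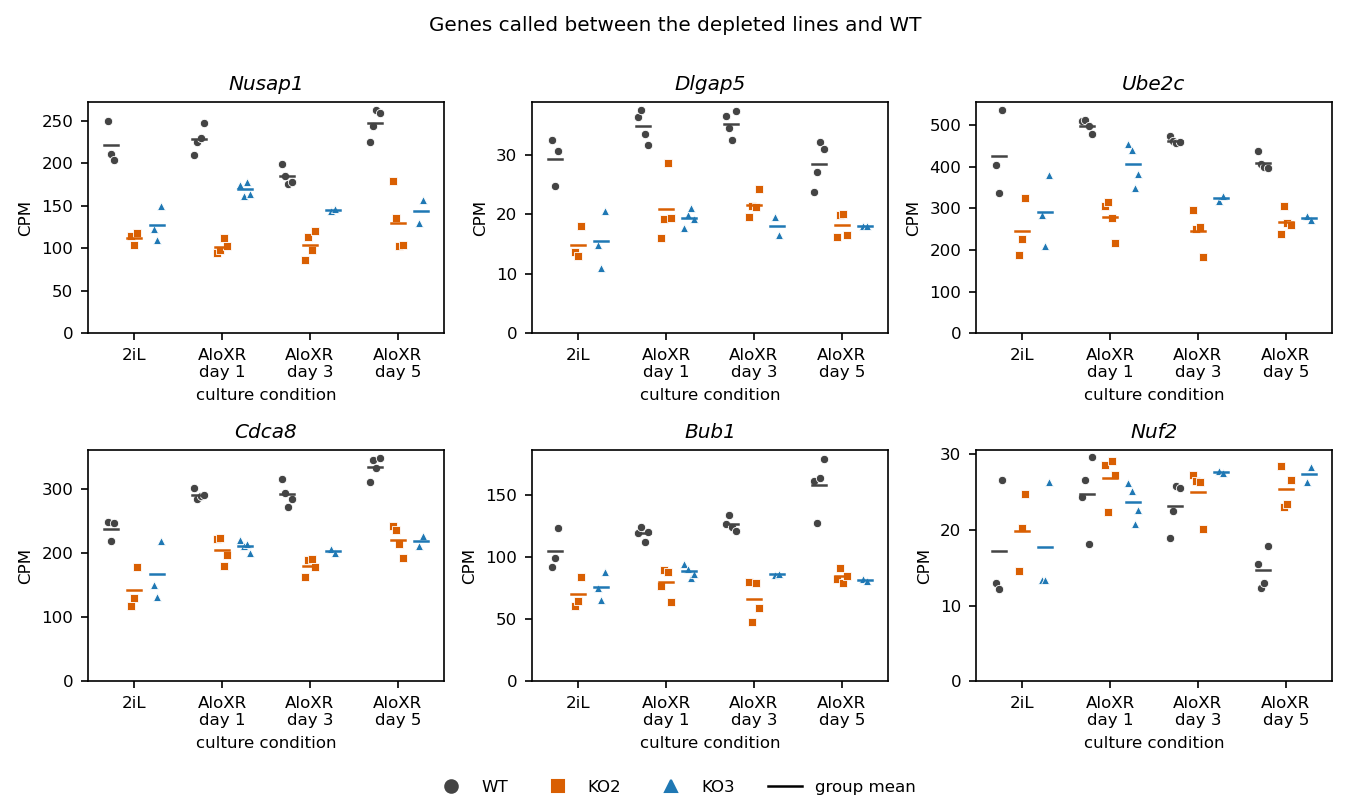
CPM (y axis, from 0, scaled for each gene) of Nusap1, Dlgap5, Ube2c, Cdca8, Bub1 and Nuf2 in every library by line and time (x axis); points are libraries and horizontal bars are means. The WT mean lies above both depleted lines for the first 5 genes, and at day 5 Nuf2 is at 12.3 to 17.9 CPM in WT and 22.9 to 28.5 in the depleted lines.

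Each line was also set against WT by itself. KO2 alone met the rule for all 6, 2 and 5 of the genes called in 2iL and at days 1 and 3, and for 8 of 11 at day 5. KO3 alone met it for 2 of 6 in 2iL (Nusap1 and Dlgap5), 1 of 2 at day 1 (Dlgap5), 1 of 5 at day 3 (Dlgap5, with 2 KO3 libraries) and 9 of 11 at day 5. In 2iL the count fell from 6 to 2 without the KO3 library numbered 2. It was 3 when only the groups compared entered the fit, and without the 2iL libraries numbered 3 it was 8, against 8.93% of all genes tested. All 6 genes called in 2iL were among these 8, with differences of −0.72 for Bub1b, −0.71 for Ube2c, −0.82 for Cdca8, −0.76 for Cenpa, −1.02 for Nusap1 and −1.06 for Dlgap5. The libraries left out were high for the mitotic genes, most of all in KO3, so larger differences without them are no separate support. At day 5 edgeR and DESeq2 on the recovered reads each called 7 of the 11, losing Ube2c, Cdca8, Cenpa and Hmmr.

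KO3 was also compared with KO2 directly, which bears on how far the average of the lines describes either. In 2iL 1 member was called in either direction (7.24% of all genes tested), Ndc80, a microtubule-binding kinetochore protein. It was 106, 104 and 131 CPM in KO2, 41.8, 57.9 and 89.6 in KO3 and 54.1, 67.7 and 97 in WT, so KO2 was above both other lines (KO3 minus KO2 −0.90 ± 0.17 SE, adjusted p = 1.87e-04 in limma). KO2 minus WT for Ndc80 was 0.67, 0.43, 0.36 and 0.26 over the 4 times and KO3 minus WT −0.23, −0.07, −0.18 and −0.14.

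At day 1, 3 members were higher in KO3 than in KO2 (15.0% of all genes tested called in either direction). Nusap1 differed by 0.73 ± 0.12 (SE, adjusted p = 1.14e-05 in limma). Anln was 56.5, 53.6, 57.8 and 31.9 CPM in KO2, 90.5, 73.3, 72.8 and 73.0 in KO3 and 69.9 to 71.8 in WT (0.65 ± 0.14, adjusted p = 4.4e-04). Mki67 was 59.7, 56.6, 82.2 and 40.4 CPM in KO2 and 86.7 to 98.2 in KO3 (0.67 ± 0.24, adjusted p = 0.0373). KO2 was the lower line for each. The count was 1 without the KO2 library numbered 4, and 1 without the KO3 library numbered 1. At day 3, 1 member was called (7.69%), Cenpf, a kinetochore protein of G2 cells, at 185, 217, 225 and 233 CPM in KO2 and 354 and 332 in KO3 (0.68 ± 0.22, adjusted p = 0.0481), a call lost without either KO3 library, without the KO2 library numbered 3 or 4, in edgeR (0.64, adjusted p = 0.0574) and with position-centred values (0.51, adjusted p = 0.121). At day 5, 0 were called (14.1%), with 5 at an unadjusted p under 0.05 in limma, and edgeR and DESeq2 called 1 each. That count was 1 without the KO2 library numbered 3 or 4 or the KO3 library numbered 2, and the 2iL count was 2 without the KO2 library numbered 1 and 4 without the KO3 library numbered 3.

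Each gene was also set beside its neighbours on the chromosome. For every gene the median difference of up to 40 expressed neighbours, 20 on each side, was taken from the same comparison. Dlgap5 differed by −0.92, −0.78, −0.81 and −0.62, and its 40 neighbours had medians of −0.83, −0.86, −0.78 and −0.71. After each library was centred on these neighbours, Dlgap5 differed by −0.15, −0.00, 0.02 and 0.12 and was not called at any time. For Nusap1 the neighbours' medians were −0.10, −0.19, −0.22 and −0.21, well short of its own differences. Medians of whole chromosomes were taken over genes with a mean of at least 10 CPM. Over the 283 such genes on chromosome 14 the median difference from WT was −0.36 to −0.44 in KO2 and −0.21 to −0.29 in KO3 over the 4 times. On chromosomes 2, 4 and 13, which hold 6, 3 and 1 of the members, it was −0.10 to −0.28 in KO2 and −0.00 to −0.08 in KO3. Chromosome 6, which holds Mad2l1 and Cdca3, went the other way in KO3, with medians of 0.23 to 0.39, and was −0.01 to 0.11 in KO2. Chromosomes 2, 4 and 14 hold 10 of the members. Of the members called lower against WT with the lines averaged, 5 of 6 in 2iL lay on these chromosomes. At days 1, 3 and 5 it was 2 of 2, 5 of 5 and 6 of 10. Whether the lower medians of these chromosomes have a part in the calls was not tested.

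With position-centred values, 4 members were called lower in 2iL (6.97% of all genes tested), 1 at day 1 (3.98%), 1 at day 3 (5.03%) and 4 at day 5 (9.54%). Of the genes called without centring, those still called were Cdca8, Cenpa and Nusap1 in 2iL, Nusap1 at day 1, Ube2c at day 3, and Ccnb2, Bub1, Cenpa, Nuf2 and Nusap1 at day 5. Apart from Dlgap5, the genes that lost the call stayed below WT after centring. At day 5 Hmmr differed by −0.56, Anln by −0.56 and Cdca8 by −0.50, just short of 1.5-fold, with neighbours' medians of 0.06, −0.03 and −0.12, so those losses come with little difference at the neighbours. Bub1b and Ube2c differed by −0.44 and −0.43 after centring, with neighbours' medians of −0.30 and −0.16. At day 3 Bub1 differed by −0.56, Cdca8 by −0.48 and Nusap1 by −0.35, and in 2iL Ube2c by −0.58 and Bub1b by −0.42. The median over the 38 after centring was −0.28, −0.27, −0.18 and −0.23, beside −0.29, −0.32, −0.22 and −0.33 without it.

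**Figure D4:**
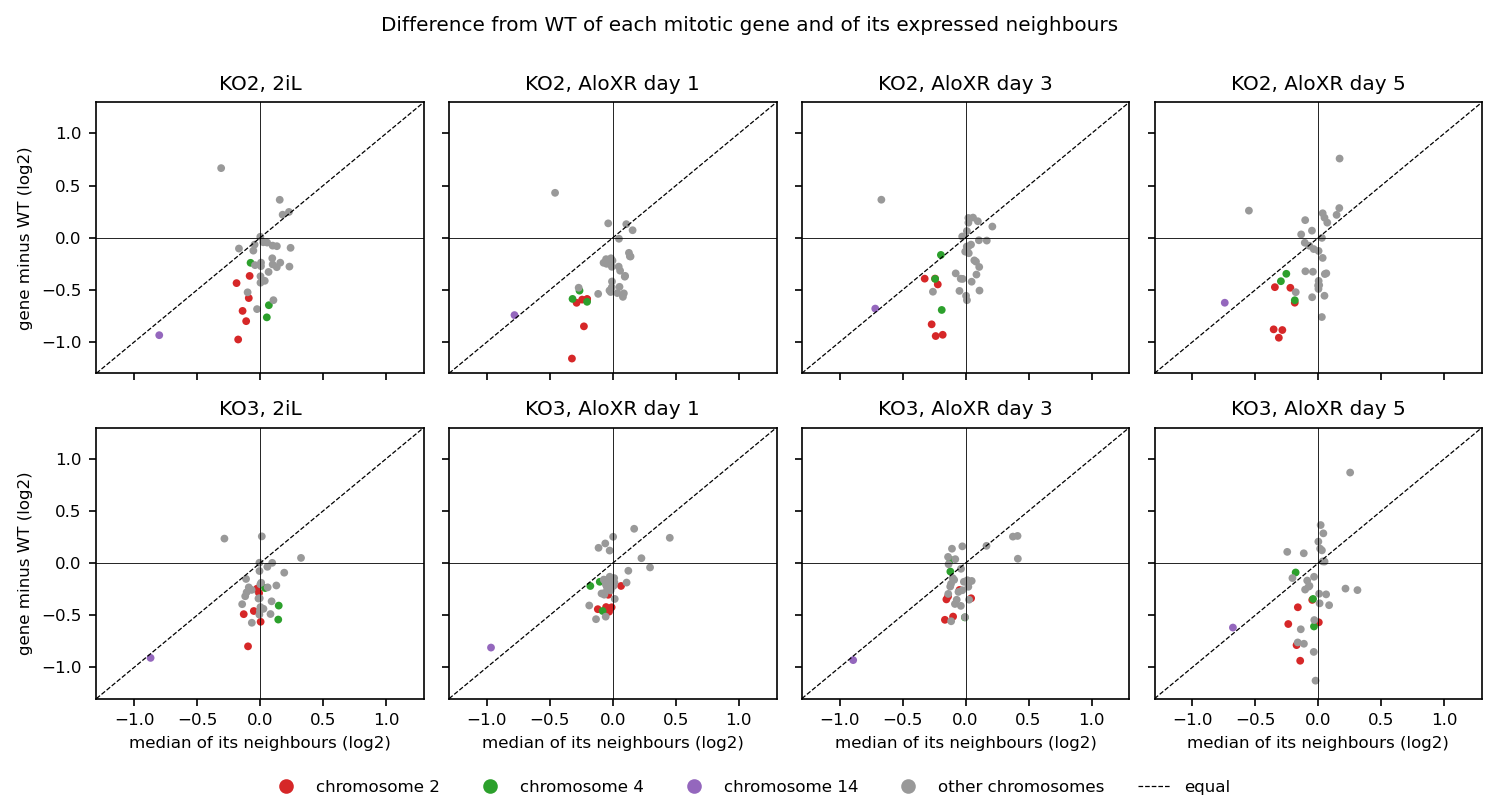
Difference of KO2 or KO3 from WT in log2(CPM + 1) for each of the 38 genes (y axis) against the median difference of its neighbours on the chromosome (x axis), with 1 panel for each line and time. The diagonal marks equality. With the lines averaged, as in the text, Dlgap5 was close to the median of its neighbours at each time and Nusap1 well below it.

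The course from 2iL was then followed within each genotype. The comparisons at days 1, 3 and 5 share their 2iL libraries, so their values are given side by side and are not independent. In WT, 4 members were called higher at day 1 (17.8% of all genes tested), 3 at day 3 (21%) and 5 at day 5 (22.7%). 1 was called lower at day 1 (18.7%), 1 at day 3 (20.6%) and 0 at day 5 (16.6%), where 2 were lower at an unadjusted p under 0.05 in limma and edgeR and DESeq2 called 2 each. On the recovered reads edgeR called 1, 2 and 2 members higher in WT at days 1, 3 and 5, and DESeq2 1, 1 and 2. In the depleted lines 5, 4 and 4 were called higher (14.9%, 19.9% and 20.8%) and 0, 2 and 2 lower (17.4%, 18.4% and 18.5%). At day 1, 4 members of the depleted lines were lower at an unadjusted p under 0.05 in limma, and edgeR and DESeq2 called 0. The members' median was 0.27, 0.18 and 0.19 in WT and 0.28, 0.23 and 0.23 in the depleted lines, beside 0.01 to 0.09 over all genes tested. The share of members called in a direction, 0 to 13.2%, was below the share of all genes in each of these comparisons.

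Plk1 was called higher at all 3 times in both genotypes, and Cdc20 at all but day 1 in WT. Plk1 was 117, 126 and 218 CPM in WT in 2iL, 271, 247, 309.9 and 287 at day 1, 311, 259.5, 253 and 229.6 at day 3 and 283, 265, 266 and 252 at day 5. All later libraries were above all 2iL libraries, and the changes were 0.91 ± 0.17 (SE), 0.82 ± 0.17 and 0.85 ± 0.17 (adjusted p = 2.45e-05, 8.16e-05 and 5.39e-05 in limma). In the depleted lines Plk1 changed by 0.77 ± 0.12, 0.98 ± 0.13 and 0.95 ± 0.13, all called. Cdc20 was 212, 162 and 245 CPM in WT in 2iL and 378, 359, 318 and 326 at day 5, a change of 0.76 ± 0.16 (adjusted p = 7.99e-05). In the depleted lines it changed by 0.69, 1.10 and 0.94, also called at each time.

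Other rises were called in part of the course. Cdk1 was 249, 190.3 and 272 CPM in WT in 2iL and 339.5 to 369 at day 1, without overlap (0.60 ± 0.17 SE, adjusted p = 0.00312 in limma), and rose in the depleted lines by 0.74, 0.68 and 0.63. Cenpe, which rose in WT by 0.59, 0.68 and 0.71, was 138, 145 and 246 CPM in WT in 2iL and 247 to 309.7 at day 5. Ccna2 rose at day 1 in WT (0.61), Bub1 and Aurkb at day 5 in WT (0.59 and 0.71), Mad2l1 and Top2a at day 1 in the depleted lines (0.73 and 0.63), and Mki67 at days 3 and 5 in the depleted lines (0.66 and 0.75). With position-centred values the WT changes were 0.38, 0.38 and 0.50 for Cenpe, and at day 1 0.48 for Ccna2 and 0.57 for Cdk1. They were 0.38 and 0.49 for Cdc20 at days 3 and 5 and 0.31 for Bub1 at day 5. None of these was called, while those of Plk1 and Aurkb in WT were. In the depleted lines Cdk1 then lost the call at days 3 and 5 and Mki67 at day 3. Without the 2iL libraries numbered 3 all of these rises, and those of Plk1 and Cdc20, were still called and larger, as for Plk1 in WT (1.19, 1.10 and 1.13), Cdc20 in the depleted lines (0.91, 1.32 and 1.16) and Cenpe in WT (0.85, 0.95 and 0.97).

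Anln and Ccnf moved the other way. Anln was 111, 106 and 105 CPM in WT in 2iL and 71.2, 69.9, 70.4 and 71.8 at day 1. It fell in WT at days 1 and 3 (−0.59 ± 0.15 SE and −0.60 ± 0.15, adjusted p = 0.00107 and 7.47e-04 in limma) and in the depleted lines at days 3 and 5 (−0.59 and −0.65). Ccnf, cyclin F, a substrate receptor of the SCF ubiquitin ligase that limits centrosome duplication, was 95.8, 117 and 129 CPM in KO2 and 142, 121 and 158 in KO3 in 2iL. At day 3 it was 69.7, 84.8, 72.7 and 85.9 CPM in KO2 and 65.2 and 83.2 in KO3, all below 2iL (−0.72 ± 0.09, adjusted p = 2.87e-09), and at day 5 the change was −0.66 ± 0.09. With position-centred values Anln in WT was −0.56 at day 1, no longer called, and −0.65 at day 3. Without the 2iL libraries numbered 3 the falls in WT were kept (−0.61 and −0.62 for Anln). In the depleted lines Anln was then −0.45 and −0.51 at days 3 and 5 and Ccnf −0.63 and −0.57, and of these 4 values only that of Ccnf at day 3 was still called.

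**Figure D5:**
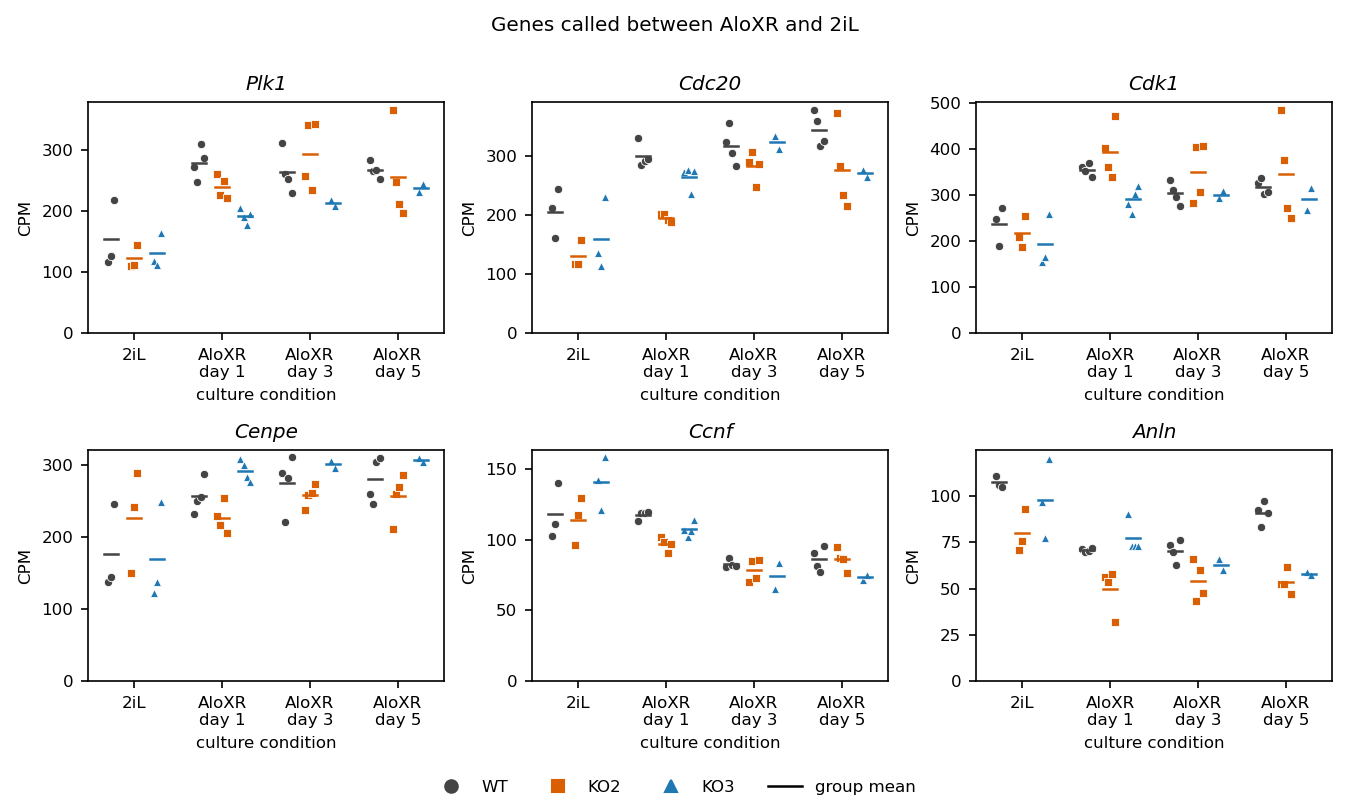
CPM (y axis, from 0, scaled for each gene) of Plk1, Cdc20, Cdk1, Cenpe, Ccnf and Anln in every library from 2iL to AloXR day 5 (x axis) by line; points are libraries and horizontal bars are means. In WT, Plk1 rises from 117 to 218 CPM in 2iL to 247 to 309.9 at day 1, and Anln falls from 105 to 111 CPM to 69.9 to 71.8.

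These counts depend on the 2iL libraries numbered 3. Without them, 14, 9 and 8 members were called higher in WT at days 1, 3 and 5 (19.3%, 21.9% and 22.8% of all genes tested). In the depleted lines 14, 12 and 13 were called higher (16.8%, 21% and 22%). The members' median was then 0.38, 0.28 and 0.36 in WT and 0.50, 0.44 and 0.42 in the depleted lines. The share of members called higher was then above that of all genes at days 1 and 3 in both genotypes and at day 5 in the depleted lines, and below it in WT at day 5 (21.1%). With all libraries it was below that of all genes in each of these comparisons. The libraries left out were high for these same genes, so the higher share without them is no separate support for a rise. Counting both directions, 5, 4 and 5 members were called in WT with all libraries. Leaving out the WT 2iL library numbered 3 alone gave 15, 10 and 8. Leaving out the library numbered 1 gave 3 at day 1 and 2 at day 5, and the library numbered 2 gave 2 at day 1 and 2 at day 3. In the depleted lines 5, 6 and 6 members became 11, 10 and 11 without the KO3 2iL library numbered 3, and 8 at day 1 and 11 at day 5 without the KO2 library so numbered. edgeR and DESeq2 each called 2 in WT at day 1.

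Whether the course differed with genotype was tested as the change in the depleted lines minus the change in WT. At day 1, 0 members were called (9.15% of all genes tested) and at day 3, 0 (14.8%). At an unadjusted p under 0.05 limma gave 3 members at each of these times, and edgeR and DESeq2 called 0. At day 5, 1 was called (17.9%), Ect2, which was 79.6, 97.9 and 138 CPM in WT in 2iL and 128, 117, 113 and 121 at day 5. KO2 went from 87.0, 91.5 and 109 CPM to 92.4, 107, 90.2 and 93.9, and KO3 from 121, 98.6 and 147 to 75.6 and 65.2. KO3 at day 5 lay below its 2iL libraries, while WT and KO2 overlapped theirs. The difference was −0.61 ± 0.17 (SE, adjusted p = 0.00916 in limma). It missed the 1.5-fold limit in edgeR (−0.53) and DESeq2 (−0.51), and it was −0.43 without the WT 2iL library numbered 1. Without the WT 2iL library numbered 3, 2 members were called at each of the 3 times, and without the KO3 2iL library numbered 3, 0, 1 and 4 were called. The count at day 3 was 1 without the WT 2iL library numbered 2. At day 5 it was 0 without the WT day 5 library numbered 1 or the KO3 day 5 library numbered 2, and 2 without the WT day 5 library numbered 4, the WT 2iL library numbered 2 or the KO2 2iL library numbered 3. The median difference over the 38 was 0.01, 0.04 and −0.02.

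Other genes of the cycle give the setting. Over all genes tested, 7.60%, 5.50%, 6.49% and 11.7% were called lower against WT in 2iL and at days 1, 3 and 5. Called higher were 8.11%, 6.31%, 10.8% and 8.89%. These shares stand beside each count against WT of the lists that follow. A list of 50 further mitotic genes had 8, 2, 5 and 6 called lower and 1, 1, 2 and 1 called higher in the depleted lines against WT in 2iL and at days 1, 3 and 5, with medians of −0.27, −0.20, −0.18 and −0.25. Pbk, a mitotic kinase, was lowest in 2iL (−1.24 ± 0.14 SE), with Sgo2a, which guards centromeric cohesion (−0.96), and Cenpw, a kinetochore protein (−0.81). Pttg1, securin, went the other way by 1.92 ± 0.13 in 2iL (adjusted p = 2.44e-16 in limma) and 1.38 and 0.72 at days 1 and 3. Cdca2 was lowest of the called genes at day 3 and Nek2 at day 5, both by −0.91. Neighbours on the chromosome and position-centred values are given only for the 38 members. Whether differences of genes on this list or the lists below are shared by their neighbours is therefore not shown.

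Genes of the G1/S transition, 45 in all, had 3, 5, 0 and 0 called lower and 0, 0, 0 and 3 higher, with medians of −0.12, −0.34, −0.14 and 0.04. At day 1 42 of the 45 were below WT. In WT 16 of them rose from 2iL to day 1, against 17.8% of all genes tested. Among them were Ccne1 (1.61) and Ccne2 (1.35), cyclins that start S phase. Among 22 regulators of cell cycle transcription, 3, 5, 0 and 2 were called lower and 0, 0, 0 and 3 higher. Mybl2, which encodes B-Myb, differed by −1.06 ± 0.20 (SE) in 2iL, −0.998 at day 1 and 0.65 at day 5 (adjusted p = 4.82e-05, 1.62e-05 and 0.00506 in limma), and Foxm1 was not called. Of 16 subunits of the anaphase-promoting complex, 0 were called lower at any time and 0, 0, 1 and 1 higher.

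Among 13 measured CDK inhibitor and p53 arrest genes of 14, 1, 6, 9 and 4 were called higher and 1, 1, 0 and 1 lower, with medians of −0.11, 0.35, 1.07 and 0.29. Gadd45b, a growth arrest gene, was higher by 2.22 at day 1 and 2.58 at day 3. Cdkn1a, the p21 inhibitor, was higher by 1.31 ± 0.19 (SE) at day 1, and Cdkn2a by 1.97 at day 3 and 1.70 at day 5. The summed level of the list was 900.4 to 1033 CPM in WT at day 3, 1221 to 1394 in KO2 and 1694 to 1752 in KO3, without overlap.

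Markers of other cell types and of RNA quality differed between the same groups at some of the times. Their part in the lower mitotic levels was not tested. Of 10 trophoblast markers 9 were measured (not Elf5), summing to 52.6 to 69.1 CPM in WT at day 1 and 119.9 to 176 in the depleted libraries, and to 140 to 171 against 419 to 687 at day 3, and 4, 6, 7 and 4 of the 9 were called higher over the 4 times. Of 10 primitive endoderm markers 9 were measured (not Sox7), summing to 142 to 190 CPM in WT at day 1, 315 to 394 in KO2 and 567 to 612 in KO3, and 3, 5, 7 and 6 of the 9 were called higher. At day 5 the trophoblast sum was 293 to 339 CPM in WT, 264.5 to 311 in KO2 and 470 to 482 in KO3. The endoderm sum was then 483 to 606, 517 to 678 and 1172 to 1283 CPM, so KO2 overlapped WT for both lists. The median difference from WT at day 3 was 1.98 over the trophoblast and 1.31 over the endoderm markers. Within the lists Cdx2 reached at most 3.86 CPM and Gata4 at most 6.14 CPM in any library. Of 12 fibroblast markers 9 were measured (not Lum, Postn or Twist2), summing at day 3 to 33.1 to 39.6 CPM in WT, 79.7 to 128 in KO2 and 42.8 to 46.3 in KO3, and Col3a1 reached at most 2.84 CPM. At day 5 the fibroblast sum was 54.5 to 64.6 CPM in WT, 56.5 to 72.1 in KO2 and 51.9 to 52.2 in KO3. Of 6 neural and 6 blood markers 5 each were measured, with 2, 1, 2 and 1 and with 2, 0, 1 and 2 called higher. Mitochondrial reads were 2.97 to 3.20% in WT at day 1, 3.39 to 4.41% in KO2 and 4.02 to 4.63% in KO3. They were also above WT in both depleted lines at day 5. At day 3 they were 2.35 to 3.83% in WT, 2.81 to 3.83% in KO2 and 3.75 to 4.04% in KO3, and in 2iL the lines overlapped too.

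Some of the values carry a limit of counting. The strand setting of the authors' counting is not given in the sources used here, and 7 members overlap a gene on the other strand. The highest of these genes lie at Kif20a (Cdc23, 77.65 CPM on average) and Ccna2 (Exosc9, 77.19). The others are Nusap1 with Oip5 (30.1), Cdc20 with Elovl1 (21.5), Ube2c with Tnnc2 (16.9), Cdca8 with 9930104L06Rik (7.06) and Prc1 with Rccd1 (4.59). The smallest number of reads behind any member in any library was 47, for Nuf2 and Dlgap5.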

How the data were processed

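RNA was measured by QuantSeq 3′ sequencing in 41 libraries. Per the submitters' processing notes the authors used STAR 2.7.6a and featureCounts 2.0.1 (Subread) on GRCm38. The strand setting and gene annotation release are not given in the sources used here. The deposited table holds CPM per Ensembl gene, made by the authors. Every one of its 766190 values above 0 was a whole number of reads within 0.01 reads, so depths and reads were recovered. Gene symbols were found for 55141 of 55487 identifiers.

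The 16967 genes that reached 1 CPM in 3 or more libraries were fitted with limma 3.58.1 (R 4.3.3) on log2(CPM + 1), with 1 mean for each of 12 groups over all libraries (29 residual degrees of freedom) and empirical Bayes moderation with trend and robust variances. Differences are on that scale, which understates changes of low genes. Both depleted lines had equal weight. Comparisons between genotypes share the WT libraries of their time. Alternatives were edgeR 4.0.16 and DESeq2 1.42.0 on the recovered reads, other pseudocounts and filters, quantile normalization, each line alone, only the groups compared, and each library left out. Position-centred values, and leaving out the 2iL libraries numbered 3, were added after seeing the data. The limma step was tested on simulated data. All 38 genes could be named; of other lists, up to 4 called genes with the largest change for each comparison were. The genes and lists were chosen with earlier results of these data known.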

Additional observations from a re-analysis of the deposited data

Results flagged for a closer look

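In groups of 4 libraries, 182 sets of values were checked for 1 library far from the other 3, which chance finds in about 1 of 20 sets, and 6 were found. Cdc20 was lowest in the KO3 day 1 library numbered 3 (236 CPM, others 274 to 276), where Top2a was highest (1015 CPM, others 929.8 to 939). Kif11 was lowest in the WT day 5 library numbered 2 (62.0 CPM, others 82.5 to 84.9). Nuf2 was lowest in the KO2 day 3 library numbered 4 (20.2 CPM, others 26.3 to 27.2). Anln was lowest in the KO2 day 1 library numbered 4 (31.9 CPM, others 53.6 to 57.8) and highest in the KO3 day 1 library numbered 1 (90.5 CPM, others 72.8 to 73.3), 2 libraries that bear on its difference between these lines.

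A test of the difference between lines or courses passed for 6 values, all on the log2 scale by limma. Ect2 changed from 2iL to day 5 by −0.61 more in the depleted lines than in WT. KO3 minus KO2 was −0.90 for Ndc80 in 2iL, 0.73 for Nusap1, 0.65 for Anln and 0.67 for Mki67 at day 1, and 0.68 for Cenpf at day 3.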

How the results depend on the processing

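Counts here are of the 38 genes called in either direction. Those called against WT were 6, 2, 5 and 11 in 2iL and at days 1, 3 and 5. They were 2, 1 and 1 with KO3 alone in 2iL and at days 1 and 3, 9 with KO2 alone at day 1, 3 with only the groups compared in 2iL, 1, 1 and 5 with position-centred values at days 1, 3 and 5, and 7 with edgeR and 7 with DESeq2 at day 5. The WT course (5, 4 and 5) gave 15, 10 and 8 without the 2iL libraries numbered 3. At day 1 it gave 3 with a pseudocount of 5 CPM, 3 with quantile normalization, 3 with position-centred values, 2 with edgeR and 2 with DESeq2, and at day 5 it gave 3 with position-centred values. The course of the depleted lines (5, 6 and 6) gave 14, 13 and 13 without those 2iL libraries. The difference of the courses (0, 0 and 1) gave 1 and 4 at days 3 and 5 without those libraries, 1 and 2 with position-centred values, and at day 5 0 with a pseudocount of 5 CPM and 2 with quantile normalization. KO3 against KO2 (1, 3, 1 and 0) gave in 2iL 0 with only the groups compared and 2 without the libraries numbered 3, at day 1 1 with quantile normalization, at day 3 0 with a pseudocount of 0.5 CPM, 0 without a filter on low values and 2 with DESeq2, and at day 5 1 each with quantile normalization, position-centred values, edgeR and DESeq2. The cause was not tested.

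With 1 library left out at a time, the counts ranged from 2 to 9, 2 to 3, 4 to 6 and 8 to 11 against WT, 2 to 15, 2 to 10 and 2 to 8 in the WT course, and 4 to 11, 5 to 10 and 5 to 11 in the course of the depleted lines. They ranged from 0 to 2, 0 to 2 and 0 to 4 for the difference of the courses, and from 1 to 4, 1 to 4, 0 to 1 and 0 to 1 for KO3 against KO2. The libraries that move a count by over 1.5 times are named beside each result. Dlgap5 against WT turned to 0.0177 at day 3 and 0.12 at day 5 with position-centred values. Of 61 single results that were called, 1066 refits kept direction and call, 195 kept direction but not the call, and 2, those of Dlgap5, turned. No paired analysis was possible because the labels carry no replicate numbers and the numbers used here follow accession order.

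Each of these genes held at least 47 reads in every library. KO3 has 2 libraries at days 3 and 5, so leaving out 1 there assumes that the lone library varies like the other groups. Groups of 2 to 4 libraries from cultures of unstated origin limit every comparison, and the medians of whole chromosomes also differ between the lines.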
